A study of Saccharomyces cerevisiae S288C with 6 samples.

Results

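The Mpp10 complex and the factors that work beside it in the small-subunit processome were followed as 9 genes, MPP10, IMP3, IMP4, SAS10, LCP5, BFR2, UTP7, SOF1 and UTP11, taken by gene name from the 7126 rows of the deposited table. All 9 were present, and all 9 passed the filter of a mean of at least 5 normalized read counts, IMP3 only through the libraries labelled ltv1 deletion. Messenger RNA had been measured in Saccharomyces cerevisiae S288C, the strain of the reference genome, in 3 libraries labelled ltv1-/ltv1- (a homozygous deletion of LTV1, strain number EDS615) and 3 labelled wild type (EDS76). All cultures were grown in rich YPD medium at 30 °C and taken in mid-exponential phase at an optical density of 0.5 to 0.6. Each genotype is 1 strain, and the labels do not say whether its replicates were separate cultures, so a p-value here reflects the spread between these samples and no more. Ltv1 helps to assemble the 40S ribosomal subunit, and the study compares the strain labelled as lacking its gene with one labelled wild type.

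The small-subunit processome is the particle that forms in the nucleolus on newly made ribosomal RNA and carries out the first cuts that free the RNA of the small subunit. It is built around the U3 small nucleolar RNA, which pairs with the precursor. Mpp10 is a long scaffold protein that holds Imp3 and Imp4, and these help U3 to pair with the precursor. Imp4 has a Brix domain, and Imp3 resembles the ribosomal protein Rps9. Sas10 and Lcp5 share a domain with the exosome cofactor Lrp1. Bfr2 works with Enp2 and the RNA helicase Dbp4. Utp7 and Sof1 are WD-repeat proteins, Sof1 having been found through its genetic link to the U3 protein Nop1, and Utp11 is a further subunit of the particle. In growing yeast the genes of ribosome assembly are expressed as one regulon, many of whose promoters carry the PAC and RRPE motifs. PAC is bound by the repressors Dot6 and Tod6, and RRPE by Stb3.

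The promoters are shown because all 9 genes share the PAC core and 6 of them also the RRPE core, motifs that were not used to choose them. UTP11 is shown as one of the 3 without the RRPE core. Each line runs 5′ to 3′ on the strand of the gene and covers bases 190 to 61 before the start codon, read from the RefSeq genome of build R64. Capitals mark the PAC core GATGAG or its reverse complement CTCATC, the longer PAC form GCGATGAG where present, and the RRPE core AAAATTTT, which reads the same on both strands. The 5 genes shown are MPP10 (chrX:438675-438804, plus strand), SAS10 (chrIV:183079-183208, minus strand), BFR2 (chrIV:1059437-1059566, plus strand), UTP7 (chrV:325997-326126, minus strand) and UTP11 (chrXI:256533-256662, minus strand).
MPP10: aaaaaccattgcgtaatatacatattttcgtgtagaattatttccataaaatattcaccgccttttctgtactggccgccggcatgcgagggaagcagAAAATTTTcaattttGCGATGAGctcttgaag
SAS10: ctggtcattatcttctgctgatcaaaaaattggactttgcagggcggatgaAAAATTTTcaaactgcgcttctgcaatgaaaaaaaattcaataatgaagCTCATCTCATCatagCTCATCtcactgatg
BFR2: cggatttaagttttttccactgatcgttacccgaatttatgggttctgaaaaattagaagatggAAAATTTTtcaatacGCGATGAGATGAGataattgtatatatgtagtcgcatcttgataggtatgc
UTP7: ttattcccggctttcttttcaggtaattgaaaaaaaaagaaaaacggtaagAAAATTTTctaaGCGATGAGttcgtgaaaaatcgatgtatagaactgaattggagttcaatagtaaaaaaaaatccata
UTP11: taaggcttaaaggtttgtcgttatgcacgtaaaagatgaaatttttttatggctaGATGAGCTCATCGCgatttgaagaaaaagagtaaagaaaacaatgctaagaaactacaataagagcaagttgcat

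The PAC core, searched on both strands, lay within 300 bases of the start codon in 9 of the 9 genes and in 19.1% of 6001 promoters of nuclear protein-coding genes. The longer form GCGATGAG was present in 7 of the 9, all but SAS10 and SOF1, against 4.05% of all promoters. It contains the PAC core, so the 2 counts overlap. The RRPE core was present in 6 of the 9, all but IMP3, SOF1 and UTP11, against 9.42% of all promoters. SAS10 carried 3 PAC cores, of which the first 2 share a base, and BFR2 carried 2 that share a base. In MPP10, IMP4, LCP5, BFR2 and UTP7 between 6 and 13 bases parted a PAC core from an RRPE core. A pair parted by at most 15 bases stood in 5 of the 6 promoters with both cores among the 9 genes, and in 143 of the 267 promoters in the genome with both. Among 48 other processome factors 40 promoters held the PAC core and 38 the RRPE core. These matches describe letters in a window and do not show that a factor binds there.

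**Figure D1:**
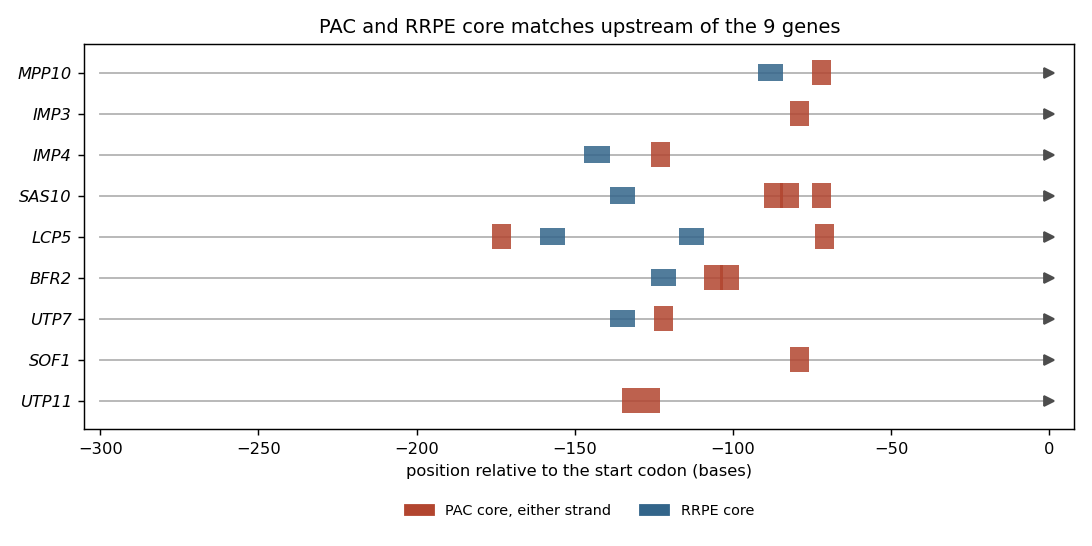
Positions of PAC core matches (red, either strand) and RRPE core matches (blue) in the 300 bases before the start codon (x axis, bases) of the 9 genes (1 line each, arrowhead at the start codon). All 9 lines carry a red box, 6 carry a blue one, and every match lies between 176 and 69 bases before the start codon.

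The libraries held, in whole reads worked back from the deposited values, between 1077569 and 1206279 under the ltv1 deletion label and between 1002573 and 1248710 under the wild type label. A floor of 3 reads in a library is worth 2.74 to 3.22 normalized read counts. The deleted gene did not follow the labels. LTV1 had 680, 3.22 and 6.40 normalized read counts in the libraries labelled ltv1 deletion 1, 2 and 3, against 29.2, 190.6 and 8.77 in those labelled wild type 1, 2 and 3. The library labelled ltv1 deletion 1 was thus the highest of all 6, and that labelled wild type 3 was the lowest of its label, at 9 reads (exact two-sided permutation p = 1, where the smallest possible is 0.1). How much of LTV1 was removed is not stated in the labels, and the 3 libraries with that label held 647, 3 and 7 reads of it. Directions below follow the labels, and results are also given without these libraries. Of 15 genes that mark haploid cells of either mating type, between 1 and 3 had no read in a library. Their summed level was 103 to 143 in the libraries labelled ltv1 deletion and 149 to 256 in those labelled wild type. None of the 6 that could be tested passed in limma, where 15.9% of all genes did. STE4, a subunit of the pheromone response G protein, had 42.0, 49.4 and 25.6 normalized read counts, against 124.4, 59.4 and 87.7. STE4 lay near the threshold (limma adjusted p = 0.0618), and it was called lower by edgeR, DESeq2 and limma-voom and in limma with a pseudocount of 5. Genes of both mating types were among those counted in every library. They included STE2 (16.4 to 34.0) and STE6 (23.1 to 40.6) of a cells, and SAG1 (6.25 to 23.3) and STE3 (0.97 to 8.41) of alpha cells. STE3, too low to be tested, went the other way from STE4. It had 8.41, 4.30 and 4.57 in the libraries labelled ltv1 deletion, against 0.97, 2.08 and 2.92. MFA1, MFA2, AGA2, STE18, MF(ALPHA)1 and MF(ALPHA)2 had at most 3 reads in any library.

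All 9 genes had higher values in each library labelled ltv1 deletion than in any labelled wild type, and 8 of them rose past the threshold of an adjusted p of 0.05 in limma. IMP3, with few reads, did not pass. The 8 had log2 fold changes of 1.52 to 2.71 (ltv1 deletion over wild type, after adding 1 to each value), and the median of the 9 was 1.97, against -0.02 over all 5663 genes tested. Over all genes 15.9% passed in either direction and 8.88% passed as higher, and in 21.6% all 3 values labelled ltv1 deletion lay above all 3 labelled wild type. Most calls were lost when a library labelled ltv1 deletion was left out. With the library labelled ltv1 deletion 1 left out 1 of the 9 passed (IMP4), without ltv1 deletion 2 it was 1 (IMP3), and without ltv1 deletion 3 it was 0, while 8 or 9 of the 9 had an unadjusted p under 0.05 in each of these fits. Among all genes 159, 202 and 37 passed in the same fits, and 1578, 1602 and 1453 had an unadjusted p under 0.05.

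MPP10 (YJR002W, chromosome X, 438865 to 440646, build R64), the scaffold of the complex, had 331, 305 and 327 normalized read counts in the libraries labelled ltv1 deletion, against 42.8, 126.0 and 99.4 in those labelled wild type. The means were 321 ± 13.9 and 89.4 ± 42.5 (SD, n = 3 each). MPP10 rose by 1.97 ± 0.39 on the log2 scale (fold change and its standard error; limma adjusted p = 0.0206). The 3 values labelled ltv1 deletion lay close together, and wild type 1 was well below the other two of its label.

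IMP4 (YNL075W, chromosome XIV, 485607 to 486479) had 168, 269.8 and 184 normalized read counts in the libraries labelled ltv1 deletion, against 62.2, 69.8 and 78.9 in those labelled wild type. It rose by 1.52 on the log2 scale, with a standard error of 0.26, and its adjusted p of 0.0162 in limma was the lowest of the 9. The libraries labelled wild type differed by 1.27 times from lowest to highest, the narrowest spread among the 8 genes that passed, and ltv1 deletion 2 stood above the other two of its label.

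IMP3 (YHR148W, chromosome VIII, 393534 to 394085) had 10, 4 and 14 reads in the libraries labelled ltv1 deletion and 4, 4 and 4 in those labelled wild type. These came to 10.5, 4.30 and 12.8 normalized read counts, against 3.89, 4.17 and 3.90. The library labelled ltv1 deletion 2 thus held as many reads as each labelled wild type, and only the scaling of the libraries set it above them. Its log2 fold change was 0.92 (standard error 0.36, limma adjusted p = 0.120), so no difference was established at this depth. It passed where ltv1 deletion 2 was left out (adjusted p = 0.0486). The mean of IMP3 was 9.20 under the ltv1 deletion label and 3.98 under the wild type label. Its place among the tested genes, and this pass, thus rest on a filter that its wild type mean alone would not meet. Next to the 3' end of IMP3, 369 bases on, lies SKG6 on the other strand, which had 142, 109 and 111 normalized read counts, against 13.6, 94.8 and 53.6, and did not pass (limma adjusted p = 0.132).

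**Figure D2:**
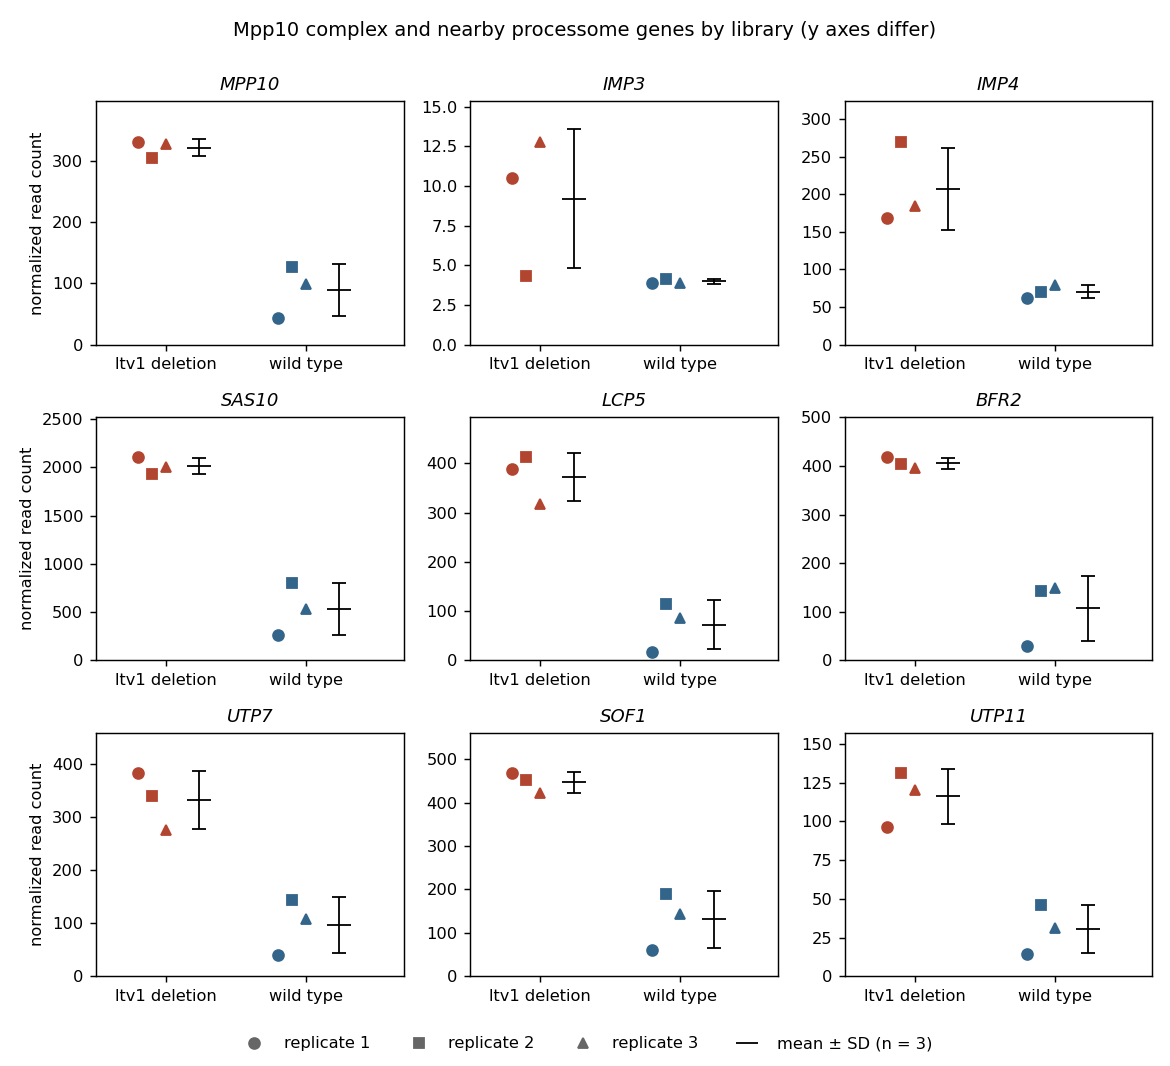
Normalized read count (y axis from 0, scale differing between panels) of the 9 genes in the 3 libraries labelled ltv1 deletion (left, red) and the 3 labelled wild type (right, blue), with the mean and SD of each label beside its points. The labels do not overlap in any panel, wild type 1 is the lowest of its label in all 9, and in IMP3 the value of 4.30 in ltv1 deletion 2 stands beside wild type values of 3.89 to 4.17.

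The genes of the Sas10 and Lcp5 pair both rose. SAS10 (YDL153C, chromosome IV, 181186 to 183018) had 2102, 1936 and 2003 normalized read counts in the libraries labelled ltv1 deletion, against 259, 802 and 530.2 in those labelled wild type. SAS10 rose by 2.07 on the log2 scale (standard error 0.40, limma adjusted p = 0.0201). With 267 to 2192 reads in a library it was the most deeply counted of the 9.

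LCP5 (YER127W, chromosome V, 414481 to 415554) had the largest change of the 9. It had 388, 412 and 317 normalized read counts in the libraries labelled ltv1 deletion, against 17.5, 113.5 and 85.8 in those labelled wild type. It rose by 2.71 on the log2 scale (standard error 0.63, limma adjusted p = 0.0287), which was 32nd in size among the increases of the 5663 genes. Wild type 1, with 18 reads, lay 6.49 times below the highest of its label, and without it the log2 fold change of LCP5 was 1.90.

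BFR2 (YDR299W, chromosome IV, 1059627 to 1061231) had 417, 403 and 395 normalized read counts in the libraries labelled ltv1 deletion, against 30.1, 142.7 and 149.1 in those labelled wild type. BFR2 rose by 2.21 on the log2 scale, with a standard error of 0.58. The values labelled ltv1 deletion lay within 1.06 times of each other, whereas wild type 1 lay 4.95 times below the highest of its label. Without wild type 1 the log2 fold change of BFR2 was 1.47. The adjusted p of 0.0398 in limma was the closest to the threshold among the 8, and the call was lost with a pseudocount of 0.1 (0.0539), with no filter on low values (0.0601) and with quantile normalization (0.0515).

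The last 3 genes moved by nearly the same amount. UTP7 (YER082C, chromosome V, 324272 to 325936) had 383, 339.6 and 275 normalized read counts in the libraries labelled ltv1 deletion, against 39.8, 143.7 and 107 in those labelled wild type. SOF1 (YLL011W, chromosome XII, 127523 to 128992) had 468, 452 and 421, against 60.3, 188 and 144. UTP11 (YKL099C, chromosome XI, 255720 to 256472) had 96.7, 131 and 121, against 14.6, 45.8 and 31.2.
In each of the 3 genes the lowest library labelled ltv1 deletion was above the highest labelled wild type. Their log2 fold changes were 1.94, 1.91 and 2.02 for UTP7, SOF1 and UTP11, with standard errors of 0.46, 0.41 and 0.40 and limma adjusted p of 0.0294, 0.0227 and 0.0206. UTP7 lost its call without wild type 3 (adjusted p = 0.0555).

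Among the 9 genes the spread between libraries was unequal. The library labelled wild type 1 was the lowest of its label in all 9, and wild type 2 the highest in 7, with wild type 3 the highest for BFR2 and IMP4. No library labelled ltv1 deletion held one place throughout, each being the lowest of its label in 2 to 4 of the 9. On the log2 scale, centred for each gene on its mean over the 6 libraries, the 9 genes averaged 0.99, 0.94 and 0.95 in ltv1 deletion 1, 2 and 3, against -1.85, -0.37 and -0.65 in wild type 1, 2 and 3. Without wild type 1 the median log2 fold change of the 9 was 1.47, and 8 passed, with 10.8% of all genes passing in that fit. General stress genes, which are high in cells that slow their growth, had lower summed levels in the libraries labelled ltv1 deletion. The summed level of 20 such genes was 1955, 2702 and 2932 normalized read counts in ltv1 deletion 1, 2 and 3, against 11082, 5564 and 9181 in wild type 1, 2 and 3. Of the 18 tested 10 fell and 8 did not pass. Those that fell numbered 4, 7 and 1 without ltv1 deletion 1, 2 and 3, 6 without wild type 3, and 0 when ltv1 deletion 1 was left out with it. With all 6 libraries 395 genes over the whole table fell (6.98%). HSP12, which fell, had 25.2, 158 and 41.1 normalized read counts, against 569, 346 and 1681. HSP12 lost its call without wild type 1 or 3 and without ltv1 deletion 1 or 3. SSE2, with 121, 126 and 107, against 636, 476 and 501, fell whichever single library was left out. The part of this list in the values of the 9 genes was not tested, and in bulk RNA fewer cells of a kind and less RNA per cell cannot be told apart.

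Ratios inside a library do not depend on how the library was scaled, up to the pseudocount. The log2 ratio of MPP10 to IMP4 averaged 0.66 ± 0.42 in the libraries labelled ltv1 deletion and 0.21 ± 0.69 in those labelled wild type (SD, n = 3 each; exact two-sided permutation p = 0.6). SAS10 over LCP5 averaged 2.44 ± 0.21 and 3.08 ± 0.65 (exact permutation p = 0.2), with the library labelled wild type 1 at 3.82 and the other two of that label at 2.81 and 2.61. UTP7 over SOF1 averaged -0.44 ± 0.16 and -0.47 ± 0.10 (exact permutation p = 0.9). None of these 3 ratios differed by more than the spread between libraries, adjusted p were 0.6 to 0.9, and 3 libraries a label cannot give an exact p below 0.1.

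**Figure D3:**
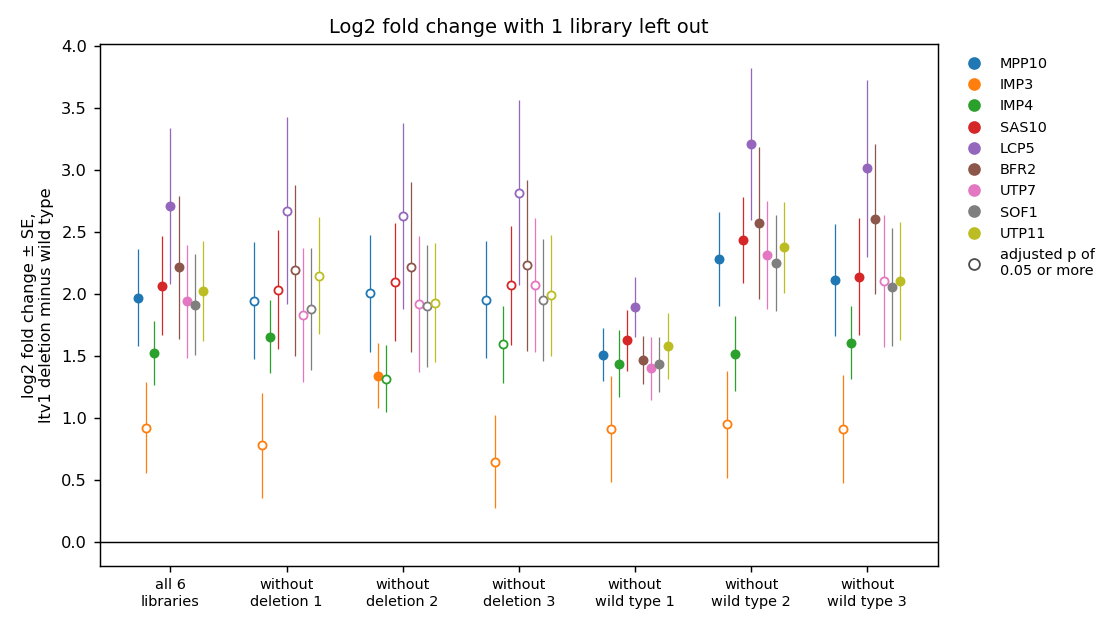
Log2 fold change with its standard error (y axis, ltv1 deletion minus wild type) of the 9 genes (colours) with all 6 libraries and with each library left out in turn (x axis). Filled points have a limma adjusted p under 0.05, and every point lies above 0, as it must where the values of the labels do not overlap. IMP3 is open with all 6 libraries and without any wild type library, UTP7 is open without wild type 3, and all points are open when a library labelled ltv1 deletion is left out, apart from IMP4 without ltv1 deletion 1 and IMP3 without ltv1 deletion 2.

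Both libraries in which LTV1 went against its label, ltv1 deletion 1 and wild type 3, were also left out together. The median log2 fold change of the 9 genes was then 2.09. Limma called 0 of the 9, with adjusted p of 0.0890 to 0.376, while 8 had an unadjusted p under 0.05. Among all genes 16 passed in that fit, or 0.282% of those tested, and 1445 had an unadjusted p under 0.05. With all 6 libraries, edgeR, DESeq2 and limma-voom on the recovered reads each called 8 of the 9. Over all genes tested they called 19.8%, 21.3% and 18.8%, in that order. In the authors' deposited table all 9 log2 fold changes were above 0, from 0.45 for IMP3 to 1.65 for UTP11. None of the 9 had an adjusted p under 0.05 there, 6 had a p-value under 0.05, and the lowest adjusted p was 0.0530, for UTP11. Among all genes of the authors' deposited table, 86 had an adjusted p under 0.05 and 471 of 6798 had a p-value under 0.05. Of all p-values there 52.1% lay at the upper limit of the scale, and the settings of the authors' test are not stated. MPP10 had a log2 fold change of 1.03 there, against 1.85 in DESeq2 on the recovered reads. The authors' p-values and counts may therefore not be comparable with those above. For none of the 9 genes was the mean level given in the authors' deposited table that of the 6 libraries. UTP11 had 105.9 there, against 73.3 over the 6 libraries, UTP7 261.7 against 214.7 and SAS10 1365 against 1272. Of the 9 genes BFR2 alone was lower there, at 252.8 against 256.2. Why these means differ was not tested.

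The other processome genes went the same way. Of 48 factors in 6 lists 43 rose, 5 did not pass and none fell, with a median log2 fold change of 1.88, and 45 had all 3 values labelled ltv1 deletion above all 3 labelled wild type. Leaving out wild type 3 reduced the 43 to 26, while calls over all genes fell to 557, against 898 with all 6 libraries. Leaving out ltv1 deletion 1, 2 or 3 reduced them to 5, 8 and 0, and leaving out wild type 3 together with ltv1 deletion 1 reduced them to 0. Centred as above, the 48 averaged 0.98, 0.95 and 0.79 in the libraries labelled ltv1 deletion, against -1.66, -0.35 and -0.71 in those labelled wild type. Whether the 9 genes differ from the 48 was not tested.

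All 4 genes listed as partners of Bfr2 or as acting in U3 release rose, each by more than the median of the 48. ENP2, the partner of Bfr2, had 1299, 1047 and 896 normalized read counts in the libraries labelled ltv1 deletion, against 74.8, 295.8 and 143 in those labelled wild type. DBP4, the helicase listed in the table as HCA4, had 574, 535.3 and 455, against 18.5, 105 and 54.6. The groups lay well apart in both, with log2 fold changes of 2.85 for ENP2 and 3.42 for DBP4 (limma adjusted p = 0.0155 and 0.0153). ECM16, the helicase that strips U3 from the precursor, rose by 1.90 on the log2 scale, and its activator UTP14 by 2.17. None of the 4 passed without ltv1 deletion 1 or without ltv1 deletion 3, and ENP2 and DBP4 alone passed without ltv1 deletion 2.

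Of the 5 proteins that bind U3 itself, 4 rose. NOP1, the methyltransferase to which Sof1 is linked, had a log2 fold change of 1.12, NOP56 of 1.50, NOP58 of 1.91 and RRP9 of 1.79. None of the 4 passed when any library labelled ltv1 deletion was left out, and RRP9 alone passed without wild type 3. SNU13, which also serves the spliceosome, did not pass, with 182, 347 and 178 normalized read counts in the libraries labelled ltv1 deletion, against 273, 144 and 205 in those labelled wild type. All 7 genes of the UTP-A subcomplex rose, UTP15 (1.63) and UTP9 (2.00) with the smallest adjusted p and NAN1 (1.28) with the largest, all as log2 fold changes. All 6 of UTP-B rose, among them UTP18 (1.98), UTP21 (1.85) and UTP6 (1.54). Without ltv1 deletion 1, 2 and 3 those called numbered 2, 2 and 0 in UTP-A and 1, 1 and 0 in UTP-B. Of UTP-C, RRP36 rose by 2.37 on the log2 scale, whereas UTP22 at 0.89 and RRP7 at 0.60 did not pass. UTP22 lay near the threshold (limma adjusted p = 0.0603), and it was called higher by edgeR, DESeq2 and limma-voom. Of 23 further factors 21 rose, including UTP23 (3.18) and NOC4 (1.96), and FCF1 had a log2 fold change of 0.22 that did not pass (limma adjusted p = 0.561).

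**Figure D4:**
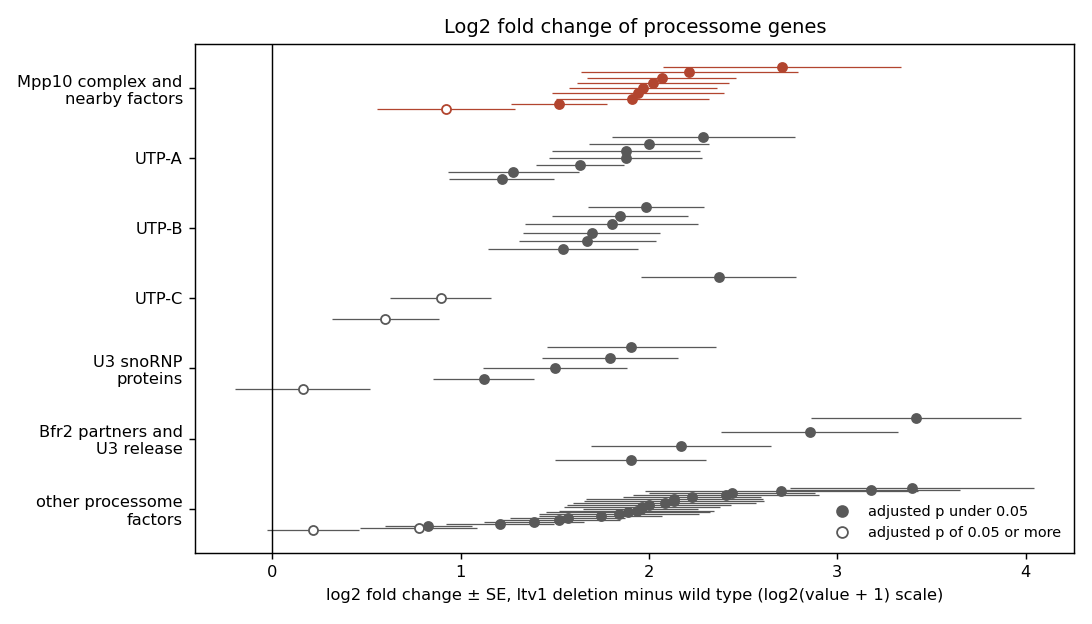
Log2 fold change with its standard error (x axis, ltv1 deletion minus wild type) of the 9 genes (red, top) and of 48 other processome genes in 6 lists (grey). Filled points passed an adjusted p of 0.05 in limma. The red points lie between 0.92 and 2.71, inside the range of 0.16 to 3.42 that the other genes span.

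Genes whose proteins share a fold with the 9 were read in the same way. LRP1, the relative of Sas10 and Lcp5, rose by 1.90 on the log2 scale. Of the Brix family of Imp4, whose other members build the 60S subunit, BRX1 (2.14), RPF1 (2.59), RPF2 (2.40) and SSF1 (2.58) rose, and SSF2 (1.49) did not pass (limma adjusted p = 0.0578). SSF2 was called higher by edgeR, DESeq2 and limma-voom. SSF1 and SSF2 are near-identical copies, as are RPS9A and RPS9B, so the reads given to each copy are uncertain. RPS9A, the gene of the protein that Imp3 resembles, rose to 25.2, 34.4 and 32.9 normalized read counts, against 6.80, 7.29 and 5.85, while RPS9B had 1944, 2496 and 1527, against 1301, 1511 and 2209. With 1 library labelled ltv1 deletion left out RPS9A still passed, whichever it was, and among the other relatives RPF1 alone did, without ltv1 deletion 2. With ltv1 deletion 1 and wild type 3 both left out none of these relatives passed in limma, RPS9A included.

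Over the whole table, promoters with both cores went with higher values under the ltv1 deletion label. Of 260 tested genes with a PAC core and an RRPE core 58.5% rose and 0 fell in limma, with a median log2 fold change of 1.41. Without the 9 genes and the 48 other processome factors it was 51.4% of 220. Genes with the PAC core alone rose in 15.1% of 762 and those with the RRPE core alone in 14.3% of 280. Among 4073 genes with neither core 3.44% rose and 8.13% fell. IMP3, SOF1 and UTP11 belong to the class with the PAC core alone, and the other 6 to the class with both. The share that rose in the class with both cores was 40.4% without wild type 3, and 9.62%, 13.1% and 1.15% without ltv1 deletion 1, 2 and 3, with medians of 1.38 to 1.48 in these fits. Without both wild type 3 and ltv1 deletion 1 it was 0.385%.

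The regulators that bind these motifs did not move as a group. TOD6, the PAC repressor, rose to 52.6, 64.5 and 41.1 normalized read counts in the libraries labelled ltv1 deletion, against 1.94, 14.6 and 9.75 in those labelled wild type (log2 fold change 2.74, limma adjusted p = 0.0227). Its wild type values rest on 2, 14 and 10 reads. DOT6, its relative, had a log2 fold change of 0.46 and STB3, which binds RRPE, of -0.65, and neither passed. SFP1, an activator of ribosome assembly genes, had -0.73 and did not pass with all 6 libraries. TOD6 lost its call when any library labelled ltv1 deletion was left out, and SFP1 passed as lower without wild type 1.

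Of the 9 genes, 5 lie head to head with a neighbour and share their upstream region with it. RPC53, a subunit of RNA polymerase III that shares 324 bases with SAS10, had 228, 278 and 207 normalized read counts in the libraries labelled ltv1 deletion, against 58.3, 75.0 and 87.7 in those labelled wild type. NSA2, a 60S assembly factor that shares 301 bases with LCP5, had 215, 209 and 193, against 58.3, 80.2 and 83.8. Both rose, with log2 fold changes of 1.69 and 1.48. The other 3 did not pass. MRPL6, a mitochondrial ribosomal protein gene beside IMP3, had a log2 fold change of -0.91, ATP5, of the mitochondrial ATP synthase, beside BFR2, of -0.65, and MTC2, beside UTP11, of -0.09. Among the nearest genes that share no upstream region with the 9, MRX12 and YEH1 rose and the rest did not pass. MRX12, 347 bases past the 3' end of MPP10 on the other strand, had a log2 fold change of 1.56 (limma adjusted p = 0.0198). YEH1, upstream of SOF1 on the same strand, had one of 1.60 (limma adjusted p = 0.0127). The annotation of build R64 places no gene over any of the 9. Of the table's rows 1078 match no locus tag in it, and overlaps with those were not examined.

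The genes whose profile over the 6 libraries was most like the mean of the 9 were TRM1 and TRM9, which modify transfer RNA, UTP13 of UTP-B, DBP9, a helicase of 60S assembly, and RBA50, of RNA polymerase II assembly. Their Pearson r with that mean lay between 0.9990 and 0.9995, as a description of 6 libraries that share 2 labels, among 3323 genes with a mean of at least 50. A value above 0.95 was reached by 362 of these (10.9%), so a like profile was common. TRM1 had 630, 616 and 581 normalized read counts in the libraries labelled ltv1 deletion, against 28.2, 153 and 102 in those labelled wild type, and its log2 fold change of 2.98 was larger than that of any of the 9.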

How the data were processed

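Per the labels, 3' tag libraries of polyadenylated RNA with molecular identifiers were sequenced as single-end reads. DESeq2 1.34.0, R 4.1.3, Salmon, STAR, Trim Galore and FastQC are named, with build R64, per the submitters' processing notes. Neither their settings nor the strand and identifier handling is stated there or in the labels. The deposited values are a signal per gene and library that the authors made by dividing counts by a size factor: within a tolerance of 0.01, 100% of them gave whole reads when divided by the library's smallest step. The authors also deposited a log2 fold change with its standard error (ltv1 deletion over wild type, by sign), and a p-value and adjusted p-value per gene.

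The unit called for limma 3.58.1 (R 4.3.3) on log2(value + 1), over all genes with a mean of at least 5, with Benjamini-Hochberg adjustment over all genes tested and a threshold of 0.05. Whole reads recovered were also tested with edgeR 4.0.16 (quasi-likelihood), DESeq2 1.42.0 and limma-voom. edgeR called 1121 genes and limma 898. The alternatives were other pseudocounts, filters, scalings and thresholds, a replicate block and fits with libraries left out. The procedure was tested on simulated data, in which no library stood apart from the others of its label. That test therefore does not cover the spread between libraries seen here. Floors cover counting error only.

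The genes, lists and tests were chosen with earlier results of these data known. Named were the 9 genes, LTV1, the genes of 4 short lists, from each other processome list the 2 with the smallest and the 1 with the largest adjusted p, genes sharing an upstream region, and the 5 most like in profile. SKG6, MRX12, YEH1 and the examples of the stress and mating lists were chosen after their values were seen. A reference locus tag was found for 6048 of 7126 rows.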

Additional observations from a re-analysis of the deposited data

How the results depend on the processing

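No fold change of the 9 genes changed sign in any of 179 alternative values, which lay between 0.61 and 3.21 on the log2 scale. As the labels did not overlap in any of the 9, pseudocounts, filters, the block and left-out libraries could not change a sign. The sign in those fits is therefore no further evidence. The calls of the 9 genes did change: 37 values lost the threshold, 1 gained it (IMP3 without ltv1 deletion 2) and 141 stayed on their side. With single libraries left out the number of the 9 called lay between 0 and 8, that of all genes between 37 and 981, and that of the 48 other processome factors between 0 and 42. With wild type 3 and ltv1 deletion 1 both left out these numbers were 0, 16 and 0. The cause of the lost calls was not tested. At a threshold of 0.01 they were 0, 24 and 0 (all 9 genes, and 1963 of all 5663, had an unadjusted limma p under 0.05), and at 0.1 all genes called numbered 1532. The values gave no sign that replicate numbers pair the libraries. Deviations from the label means correlated at -0.11, -0.20 and 0.07 for numbers 1, 2 and 3, and at 0.28 for ltv1 deletion 1 with wild type 2. With 3 libraries a label this cannot settle whether they were paired. With the replicate block 6 of the 9 genes (BFR2 and UTP7 lost), 430 of all genes and 25 other processome factors were called. LTV1 had a log2 fold change of -0.47 that turned to 1.59 (edgeR with TMM factors), 1.60 (edgeR with DESeq2 size factors) and 1.59 (DESeq2), lay between -2.78 and 0.89 with single libraries left out, and was -3.77 with that pair left out. That pair was picked by its LTV1 values, so a fall of LTV1 without it was set by the choice and is no further evidence. The cause of these differences in LTV1 was not tested. Depth limits IMP3, at 4 to 14 reads a library.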
